A study of Mus musculus with 2 samples.

Results

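The genes described here are the type 2 cytokines *Il4*, *Il5* and *Il13* and the receptors *Il1rl1* and *Il17rb*, 5 members of the 55487 genes in the deposited table. They were taken by name, with earlier results of these data known. All 5 were present. The cells were CD45+ immune cells sorted from the cecum of male mice aged 101 days, 2 Trpv1-ADC and 2 CTRL, which carried separate hashtags in 1 droplet run. Per the labels, mice of both groups received AAV as neonates by the intraperitoneal route and then CNO, a ligand of designer receptors, on alternate days for 7 injections. The series' title concerns the control of regulatory T cells by Trpv1+ nociceptors, neurons that sense heat and pain. The strains named, Trpv1-WT.B6 and Trpv1-Cre.B6, were not assigned to single mice, so a strain difference cannot be told apart from the group. Nothing in the labels gives the litter or cage of the mice, so p-values reach no further than these 4 animals. Those of edgeR, the count-based test used here, also borrow the spread of the other tested genes.

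Type 2 immunity is the arm of the immune response that acts against worms and in allergy. Damaged or irritated barrier tissue releases the alarmins interleukin 33 and TSLP, and tuft cells release interleukin 25. Group 2 innate lymphoid cells (ILC2) carry receptors for these signals, lack an antigen receptor and depend on the transcription factor Gata3. *Il1rl1* encodes ST2, the receptor of interleukin 33, which is also found on mast cells, basophils and a set of tissue regulatory T cells. *Il17rb* encodes the subunit that binds interleukin 25. Once triggered, ILC2 secrete interleukin 5, which sustains eosinophils, and interleukin 13, which drives mucus production. Interleukin 4 directs T helper 2 differentiation and antibody class switching.

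*Il4*, *Il13* and *Il5* lie together on chromosome 11 of GRCm38, the build that mm10 names, at 53602982 to 53618669 (minus strand), 53631324 to 53634702 (minus) and 53720794 to 53725106 (plus). *Rad50*, a DNA repair gene, sits between *Il13* and *Il5*. *Trpv1* is on the same chromosome, 19.5 Mb from *Il5*. *Il1rl1* is at 40429570 to 40465415 on chromosome 1 (plus) and *Il17rb* at 29996135 to 30008896 on chromosome 14 (minus). *Il5* overlaps the antisense gene *Gm12214*, and *Il17rb* overlaps *Actr8* on the other strand. Whether counting used strand was not given in the sources used here, so reads from these overlaps are uncertain. In ILC2-like cells *Gm12214* had 0 and 0 UMIs in the Trpv1-ADC mice and 0 and 1 in the CTRL mice.

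The 250 bases before the start of each gene are printed because the members that share one main cell class can be compared at their promoters. They are RefSeq sequences of GRCm38.p6, read 5′ to 3′ on the gene's strand. Capitals mark the words that GATA factors such as Gata3 recognise, on either strand. These are AGATAA and, with its last base changed, the word AGATAG, as well as the forms that begin with T, which are the word TGATAA and also the word TGATAG.
Il5, chr11:53720544-53720793, plus strand: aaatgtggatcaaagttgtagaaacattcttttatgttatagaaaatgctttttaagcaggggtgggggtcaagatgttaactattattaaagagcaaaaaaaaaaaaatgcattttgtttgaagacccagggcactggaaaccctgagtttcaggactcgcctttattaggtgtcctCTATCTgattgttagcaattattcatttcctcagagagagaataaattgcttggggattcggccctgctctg
Il13, chr11:53634703-53634952, minus strand: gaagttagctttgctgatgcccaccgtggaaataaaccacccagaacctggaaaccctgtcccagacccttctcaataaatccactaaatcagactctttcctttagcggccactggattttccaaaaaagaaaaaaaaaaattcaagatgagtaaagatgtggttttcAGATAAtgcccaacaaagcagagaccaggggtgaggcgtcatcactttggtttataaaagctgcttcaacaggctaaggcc
Il1rl1, the more 5′ of 2 starts in the table, chr1:40429320-40429569, plus strand: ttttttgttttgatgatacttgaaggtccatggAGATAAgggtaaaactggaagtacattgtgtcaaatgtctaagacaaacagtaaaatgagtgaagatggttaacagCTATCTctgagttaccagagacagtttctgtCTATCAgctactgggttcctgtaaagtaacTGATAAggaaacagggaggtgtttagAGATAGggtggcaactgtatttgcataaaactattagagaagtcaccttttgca
Il4, the more 5′ of 2 starts, chr11:53618666-53618915, minus strand: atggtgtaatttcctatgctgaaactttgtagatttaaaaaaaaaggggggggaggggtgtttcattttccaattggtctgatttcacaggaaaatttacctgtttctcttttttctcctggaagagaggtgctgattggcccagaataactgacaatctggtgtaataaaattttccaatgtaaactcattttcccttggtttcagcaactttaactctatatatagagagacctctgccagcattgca
Il17rb, chr14:30008897-30009146, minus strand: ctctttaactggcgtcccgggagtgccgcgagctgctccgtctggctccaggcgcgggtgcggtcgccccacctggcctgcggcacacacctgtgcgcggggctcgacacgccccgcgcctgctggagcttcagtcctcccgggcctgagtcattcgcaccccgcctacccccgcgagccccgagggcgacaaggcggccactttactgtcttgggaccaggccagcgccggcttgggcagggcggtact
These words occurred once in the *Il5* window, at positions -72 to -67 from the start, and once in the *Il13* window, at -81 to -76. The *Il1rl1* window held 5 of them, the nearest at -54 to -49. The printed windows of *Il4* and *Il17rb* held none, while the other listed start of *Il4* had 1 and that of *Il1rl1* had 1. Of 32851 promoter windows of this length in the table, 26.5% held at least 1. The AP-1 word TGANTCA was found in the *Il17rb* window only among these members, at -104 to -98, and in 6.75% of all windows. The STAT word, TTC and GAA spaced by any 4 bases, was found in the printed *Il4* window only, at -167 to -158, and in 5.85% of all windows. A match of letters is a description and does not show that a factor binds.

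After filtering, 17519 cells were kept: 4430 and 4531 from the Trpv1-ADC mice, and 4393 and 4165 from the CTRL mice. Their total counts ran from 27586172 to 29905834 UMIs (unique molecular identifiers, 1 per captured transcript) per mouse. These cells held 423 UMIs of *Il4*, 311 of *Il5*, 247 of *Il13*, 1014 of *Il1rl1* and 536 of *Il17rb*. The members are thus rare transcripts, seen in 190, 99, 87, 351 and 201 cells in that order. Cells were grouped into classes by marker genes, and the 5 members were kept out of the clustering, so that their levels did not shape the classes.

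One class held most of the cytokine transcripts. A cluster of 188 cells led by *Pde7b*, *Gata3* and *Rad51b* met the markers of ILC2, with all 12 of the listed markers detected. *Gata3* was found in 96.8% of these cells, *Rora*, a nuclear receptor needed for ILC2 development, in 98.9%, and *Areg*, which encodes the epithelial growth factor amphiregulin, in 77.1%. The T cell gene *Cd3e* was found in 11.7% and *Foxp3* in 0.532%. These ILC2-like cells contained 80.4% of all *Il5* UMIs, 73.3% of *Il13*, 79.5% of *Il17rb*, 57.0% of *Il4* and 38.7% of *Il1rl1*. The class made up 0.926% and 0.905% of the cells of the Trpv1-ADC mice (exact 95% intervals 0.665% to 1.25% and 0.650% to 1.23%) and 1.12% and 1.37% of those of the CTRL mice (0.826% to 1.47% and 1.04% to 1.77%). The groups did not overlap, but 2 mice against 2 can give no exact permutation p under 0.333, and the intervals, which cover counting error only, overlapped.

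*Il5* and *Il17rb* were the members whose levels in ILC2-like cells overlapped with no other class. *Il5* there averaged 174 ± 129 CPM (UMIs of the gene per 1e6 UMIs of the class, SD over 4 mice), and the lowest mouse, at 61.2 CPM, lay above every mouse of the next class, cycling cells, whose highest value was 22.8 CPM. *Il17rb* had the same next class, with 341 ± 79.8 CPM in ILC2-like cells and at most 22.8 CPM in a mouse of the cycling class. In B cell-like cells, which are not known to make these transcripts in quantity, 2 to 4 of 2598 cells had a UMI of any one member, 0.0770% to 0.154%. By the same count *Il5* was found in 37.2% of ILC2-like cells (70 of 188) and *Il17rb* in 73.9% (139 of 188). The median depth was 6207 to 6599 UMIs in the ILC2-like cells of the 4 mice. When each cell was thinned to 2000 UMIs, *Il5* was found in 17.9% and *Il17rb* in 45.1% of 184 ILC2-like cells (4 were too shallow), against 0.0390% each of 2566 B cell-like cells (32 too shallow).

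*Il1rl1* and *Il4* were spread more widely. The highest *Il1rl1* level was in a cluster of 22 mast cell or basophil-like cells led by *Mcpt1*, *Mcpt2* and *Cpa3*, proteases of mast cell granules, with 322 ± 29.0 CPM. This overlapped with the 283 ± 174 CPM of ILC2-like cells. *Il1rl1* had a UMI in 19 of these 22 cells. *Il17rb* and *Il5* had a UMI in 0 of 22, which, at 3 counts, allows at most 13.6% of such cells to have one and sets no limit on cells that express the genes. The ranks after these were regulatory T cell-like cells (36.6 ± 35.8 CPM), cycling cells (21.4 ± 23.5 CPM), conventional dendritic cell type 2-like cells (21.0 ± 9.07 CPM) and effector CD4 T cell-like cells (20.4 ± 21.5 CPM), whose mice overlapped. *Il4* averaged 191 ± 36.9 CPM in ILC2-like cells and 154 ± 133 CPM in the mast cell or basophil-like cluster, again overlapping, where 1 cell of Trpv1-ADC 1 held 19 of that mouse's 21 UMIs. In follicular helper T cell-like cells, T cells that help B cells and can secrete interleukin 4, it averaged 13.3 ± 17.8 CPM. *Il13* averaged 128 ± 86.7 CPM in ILC2-like cells and 47.4 CPM in the mast cell or basophil-like cluster, the second from 7 UMIs.

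**Figure D1:**
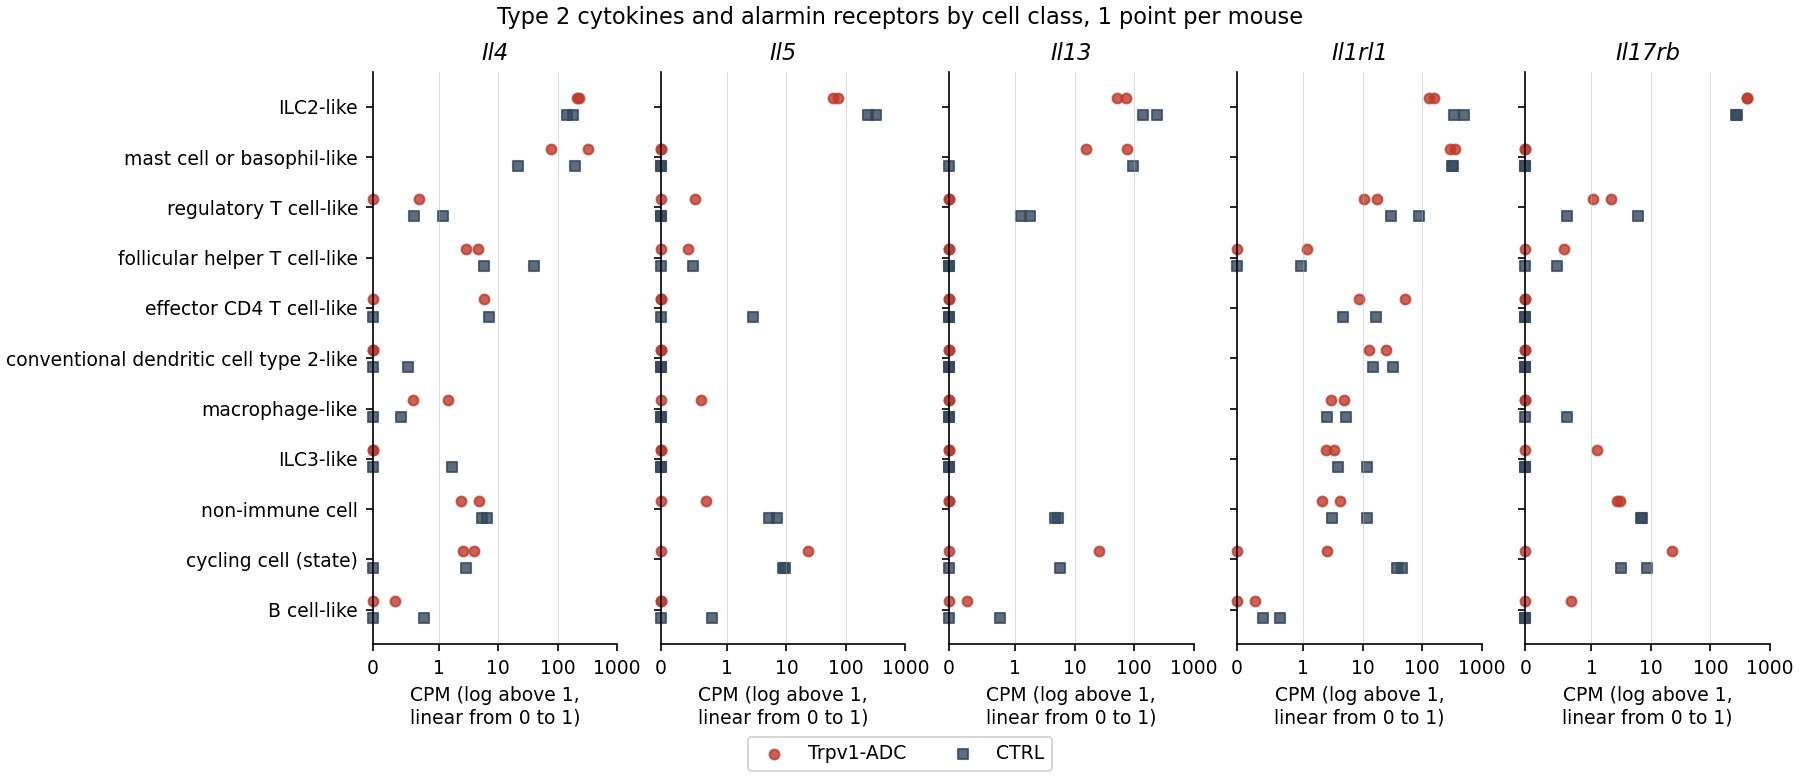
Level of each member by cell class, in CPM of summed counts (x axis, logarithmic above 1 and linear from 0 to 1), with 1 point per mouse, Trpv1-ADC as red circles above CTRL as dark squares. The ILC2-like class has the highest *Il5* and *Il17rb* in every mouse, while *Il1rl1* in the mast cell or basophil-like class lies between 291 and 361 CPM in all 4 mice.

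Over 64 sums (16 classes by 4 mice), the genes whose log2(CPM + 1) pattern was most like a member were largely the other members. *Il13* was nearest to *Il5* (Pearson r = 0.94), and *Il5* (0.94) and *Il17rb* (0.94) nearest to *Il13*. *Chdh*, which encodes a mitochondrial choline dehydrogenase, was the most alike gene outside the members for *Il5* (0.92), *Il13* (0.89) and *Il17rb* (0.93). *Il4* was nearest to *Il17rb* (0.84). *Il1rl1* differed, with *Glb1*, *Areg* and *Ltb4r1* nearest (0.77 each). The points share cells of 1 run and rest on a single high class for most members, so these values are descriptions.

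Within ILC2-like cells the question was whether the members differed between Trpv1-ADC and CTRL mice. *Il5* and *Il1rl1* fell in the Trpv1-ADC mice (log2 fold changes -2.06 and -1.54), and the other members did not pass the test. Of 4645 genes tested in this class, 5 passed an adjusted p of 0.05, which is 0.108%, and 3 of them were lower, 0.0646%. Both members are among these 3, beside *Stab2*, a scavenger receptor gene. *Kifbp* and *Ttn* were higher, and these 3 genes are named because they complete the count. The members were chosen with earlier results of these data known, so their place among the lower genes is not that of a set fixed beforehand.

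*Il5*, the eosinophil growth factor, had 16 and 20 UMIs (61.2 and 72.8 CPM) in the ILC2-like cells of the Trpv1-ADC mice, against 84 and 130 UMIs (236 and 326 CPM) in those of the CTRL mice. Both CTRL mice were above both Trpv1-ADC mice by more than the spread within either group. The log2 fold change was -2.06 ± 0.29 (SE, edgeR quasi-likelihood test, adjusted p = 0.0133). The SE of edgeR values was derived as the absolute log2 fold change over the square root of the test's F statistic. A UMI of *Il5* was found in 10 of 41 and 5 of 41 cells of the Trpv1-ADC mice, and in 24 of 49 and 31 of 57 cells of the CTRL mice. The cells that had any held on average 1.6 and 4 UMIs in Trpv1-ADC mice and 3.50 and 4.19 UMIs in CTRL mice, which overlapped. In Trpv1-ADC 2 a single cell carried 13 of the 20 UMIs. Without the cell richest in *Il5* in each mouse, the log2 fold change was -2.74 (adjusted p = 0.00916).

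*Il13*, the inducer of goblet cell mucus, had 19 and 14 UMIs (72.7 and 51.0 CPM) in Trpv1-ADC mice, against 51 and 97 UMIs (143 and 243 CPM) in CTRL mice. The groups did not overlap here either, but the CTRL mice were far apart. Its log2 fold change of -1.64 ± 0.34 did not pass the test over all genes (edgeR quasi-likelihood test, adjusted p = 0.165). With any 1 mouse left out it was -1.98 to -1.21, in fits that leave 1 group with a single mouse. Cells with a UMI were 10 of 41 and 6 of 41 in Trpv1-ADC mice, and 19 of 49 and 22 of 57 in CTRL mice.

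*Il4* had 60 and 57 UMIs (229 and 208 CPM) in Trpv1-ADC mice, against 51 and 73 UMIs (143 and 183 CPM) in CTRL mice. Its log2 fold change was 0.42 ± 0.25 (edgeR, adjusted p = 0.761). The gap between the *Il4* and *Il5* genes is 102 kb, and between *Il4* and *Il13* 12.7 kb. The ratio of *Il5* to *Il4* UMIs was 0.267 and 0.351 in Trpv1-ADC mice, and 1.65 and 1.78 in CTRL mice. That of *Il13* to *Il4* was 0.317 and 0.246 in Trpv1-ADC mice, and 1.00 and 1.33 in CTRL mice. These ratios use counts of the same cells, do not depend on total depth and do not compare the 2 genes' absolute levels. The groups were apart in both, at the smallest permutation p the design allows, 0.333.

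*Il1rl1*, the interleukin 33 receptor, had 41 and 36 UMIs (157 and 131 CPM) in the ILC2-like cells of Trpv1-ADC mice, against 179 and 136 UMIs (504 and 341 CPM) in CTRL mice. The 2 Trpv1-ADC mice were close to each other and below both CTRL mice. The log2 fold change was -1.54 ± 0.26 (edgeR, adjusted p = 0.0410). A UMI was found in 18 of 41 and 16 of 41 cells of the Trpv1-ADC mice, and in 35 of 49 and 35 of 57 cells of the CTRL mice. Cells that had any held 2.28 and 2.25 UMIs on average in Trpv1-ADC mice, and 5.11 and 3.89 in CTRL mice. Both the share of cells and the counts per positive cell were therefore lower in each Trpv1-ADC mouse than in each CTRL mouse.

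*Il17rb*, the interleukin 25 receptor subunit, had 106 and 114 UMIs (405 and 415 CPM) in Trpv1-ADC mice, against 94 and 112 UMIs (264 and 281 CPM) in CTRL mice. It ran the other way from *Il1rl1*, with a log2 fold change of 0.60 ± 0.20 that did not pass the test (edgeR, adjusted p = 0.503). The ratio of *Il1rl1* to *Il17rb* UMIs was 0.387 and 0.316 in Trpv1-ADC mice, and 1.90 and 1.21 in CTRL mice, without overlap. Cells with *Il17rb* but no *Il1rl1* were 17 of 41 and 21 of 41 in Trpv1-ADC mice (41.5% and 51.2%), and 11 of 49 and 16 of 57 in CTRL mice (22.4% and 28.1%).

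**Figure D2:**
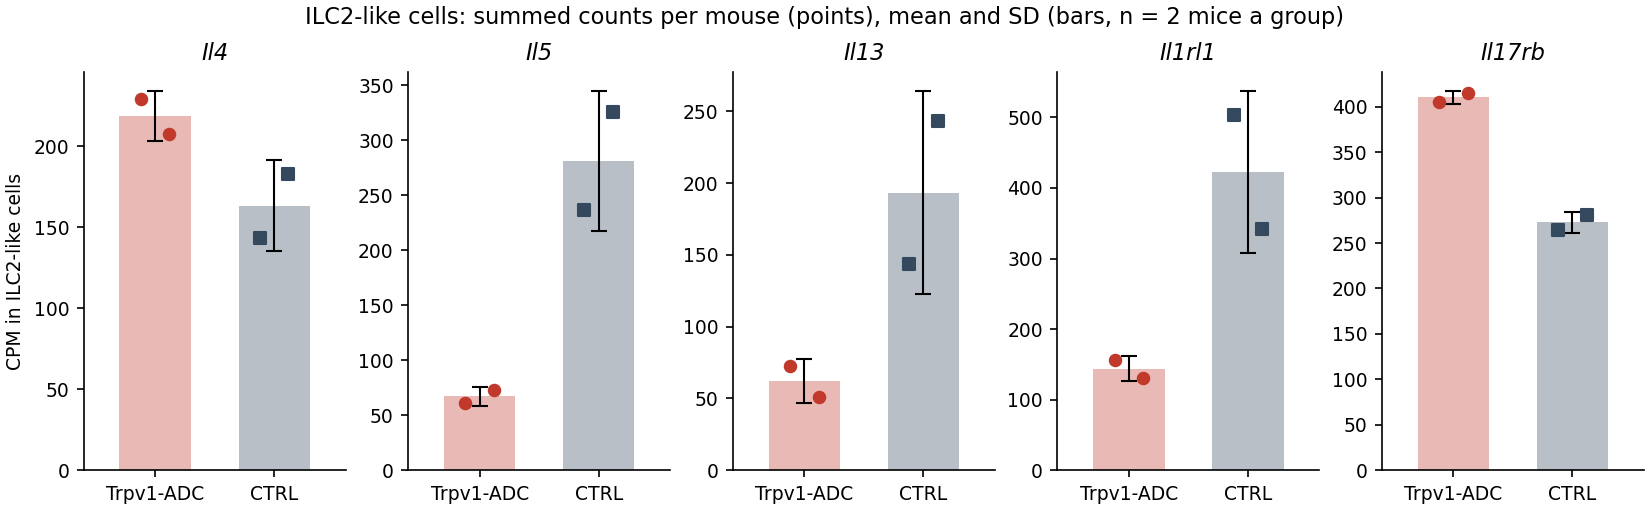
Level of each member in ILC2-like cells, in CPM (y axis from 0), with points for the mice and bars for the mean ± SD of 2 Trpv1-ADC mice (left, red) and 2 CTRL mice (right, dark). *Il5* averages 67.0 ± 8.22 CPM in Trpv1-ADC mice and 281 ± 63.5 CPM in CTRL mice, while *Il17rb* averages 410 ± 6.83 CPM in Trpv1-ADC mice and 273 ± 11.7 CPM in CTRL mice.

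Thinned to 2000 UMIs per cell, *Il5* was found in 7.50% and 2.44% of ILC2-like cells of the Trpv1-ADC mice, and in 29.2% and 27.3% of those of the CTRL mice. *Il1rl1* was found in 22.5% and 21.95% of the thinned cells of Trpv1-ADC mice, and in 50% and 36.4% of those of CTRL mice. At equal depth, in a single random draw per cell, these 2 genes thus kept the groups apart. How the shares vary over other draws was not tested. *Il13* did not: it was found in 10.0% and 4.88% in Trpv1-ADC mice, and in 8.33% and 23.6% in CTRL mice. *Il4* (30% and 24.4% in Trpv1-ADC mice, 22.9% and 20% in CTRL mice) and *Il17rb* (57.5% and 51.2% in Trpv1-ADC mice, 33.3% and 41.8% in CTRL mice) were again more frequent in the Trpv1-ADC mice.

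**Figure D3:**
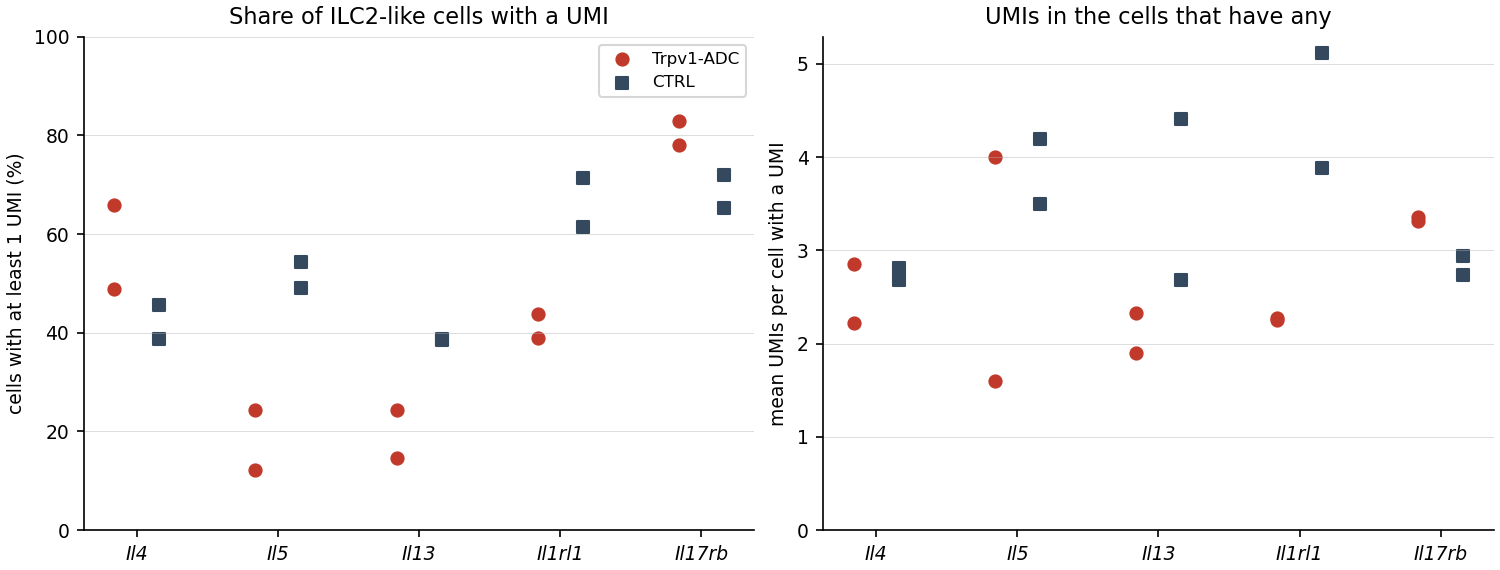
Share of ILC2-like cells with at least 1 UMI of each member (left, in %) and mean number of UMIs in the cells that have any (right), 1 point per mouse, Trpv1-ADC as red circles left of CTRL as dark squares. For *Il1rl1* both values are lower in both Trpv1-ADC mice, while for *Il5* the share separates the groups and the UMIs per positive cell overlap.

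With any 1 mouse left out, the log2 fold changes were -2.28 to -1.81 for *Il5* and -1.80 to -1.25 for *Il1rl1*. Such fits leave 1 group with a single mouse, so they give no separate support to the calls. Both calls were lost with another way of assigning cells to mice, HTODemux, which kept 174 of these 188 cells. There *Il5* was -2.004 (edgeR, adjusted p = 0.0842) and *Il1rl1* -1.53 (edgeR, adjusted p = 0.117). Both were also lost when Scrublet doublets were kept, which gave 232 cells. There *Il5* was -1.54 (edgeR, adjusted p = 0.105) and *Il1rl1* -1.21 (edgeR, adjusted p = 0.0937). A stricter cell filter ended the call on *Il1rl1* (adjusted p = 0.0635) and left *Il5* at 0.0223. Some markers of other cells differed between the groups: the fibroblast collagen *Col3a1* was found in 4.88% and 4.88% of ILC2-like cells of Trpv1-ADC mice and in 12.2% and 12.3% of those of CTRL mice, without overlap. *Cd3e* was found in 12.2% and 2.44% of those of Trpv1-ADC mice and in 20.4% and 10.5% of those of CTRL mice, which overlapped. Summed over the 4 T cell markers *Cd3e*, *Trac*, *Cd4* and *Cd40lg*, the level was 61.2 and 25.5 CPM in Trpv1-ADC mice, and 146 and 72.7 CPM in CTRL mice, without overlap. Without the cells that had a UMI of *Cd3e*, *Trac* or *Col3a1*, a setting chosen after seeing the data, *Il5* (-1.88, adjusted p = 0.0262) and *Il1rl1* (-1.61, adjusted p = 0.0271) still passed. The sum of the 12 ILC2 markers overlapped between the groups, at 6827 and 6248 CPM in Trpv1-ADC mice and 6583 and 7842 CPM in CTRL mice.

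Single ILC2-like cells rarely held all members. Of 188 cells, 8 had none, 34 had 1, 56 had 2, 54 had 3, 26 had 4 and 10 had all 5. Both *Il5* and *Il13* were found in 29 cells: 41.4% of the 70 *Il5* cells also had *Il13* (exact 95% interval 29.8% to 53.8%), against 23.7% of the 118 cells without *Il5*. *Il4* was found in 66.7% of the 57 *Il13* cells (52.9% to 78.6%) and 41.2% of the 131 others. *Il5* was seen in 44.2% of the 104 cells with *Il1rl1* (34.5% to 54.3%) and in 28.6% of the 84 without. By mouse, that order held in Trpv1-ADC 2 and CTRL 1, was reversed in Trpv1-ADC 1 and was near equal in CTRL 2. For *Il17rb*, *Il5* was seen in 37.4% of the 139 cells with it and 36.7% of the 49 without. Cells with *Il13* were deeper (median 7612 UMIs) than cells without (6136), and the part of depth in these shares was not tested. The shares also pool cells of both groups, between which *Il5* and *Il1rl1* differed, and the part of the group was not tested. Their intervals cover counting error only.

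By mouse, *Il5* was found in 3 of the 18 and 3 of the 16 *Il1rl1* cells of the Trpv1-ADC mice (16.7% and 18.8%), against 21 of 35 and 19 of 35 in the CTRL mice (60% and 54.3%). In ILC2-like cells without an *Il1rl1* UMI, *Il5* was found in 30.4% and 8% in Trpv1-ADC mice and in 21.4% and 54.5% in CTRL mice, which overlapped. Cells with *Il5* or *Il13* were 17 of 41 and 10 of 41 in Trpv1-ADC mice, against 32 of 49 and 39 of 57 in CTRL mice. Among the cells in which the interleukin 33 receptor was detected, the groups were thus apart in *Il5*, and whether the 2 sets of cells differ in this was not tested.

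**Figure D4:**
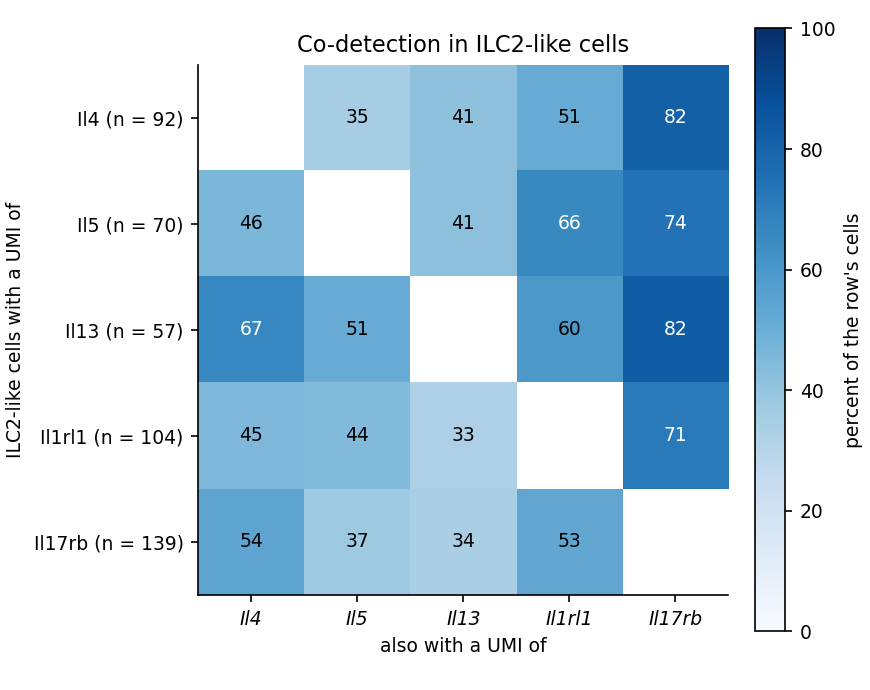
Co-detection of the members in ILC2-like cells of both groups together: each square gives the percent of the cells with a UMI of the row's gene (number in brackets) that also had a UMI of the column's gene. *Il17rb* was found in 71.2% to 82.5% of the cells with any other member, and *Il5* in 34.8% to 50.9%.

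The genes around the members were then set beside them. None of the tested genes in the 10 lists passed the test in ILC2-like cells. Called were 0 of 9 receptor partners, 0 of 13 type 2 transcription factors and 0 of 8 other products of type 2 lymphocytes. The same held for 0 of 12 inhibitors and surface regulators of ILC2 and 0 of 8 genes of prostaglandin, leukotriene and neuropeptide sensing. Over all genes 5 of 4645 were called (0.108%), so counts of 0 in lists this short do not show that the lists were unchanged. The median log2 fold changes of these lists were -0.04, -0.04, -0.33, -0.07 and 0.56 in that order, beside 0.01 over all tested genes. The next values concern genes named after their values were seen. *Gata3* was 1178 and 954 CPM in Trpv1-ADC mice and 1122 and 1026 CPM in CTRL mice, a log2 fold change of 0.00 ± 0.16. *Areg* was 773 and 666 CPM in Trpv1-ADC mice and 782 and 780 CPM in CTRL mice (-0.11 ± 0.17). *Csf2*, the granulocyte-macrophage growth factor, was 80.3 and 113 CPM in Trpv1-ADC mice and 174 and 331 CPM in CTRL mice (-1.38 ± 0.34, edgeR, adjusted p = 0.229). *Batf*, an activation factor, was 252 and 211 CPM in Trpv1-ADC mice and 87.2 and 115 CPM in CTRL mice (1.19 ± 0.26, adjusted p = 0.165, edgeR), and *Calcrl*, part of the receptor of the neuropeptide CGRP, 161 and 215 CPM in Trpv1-ADC mice and 84.4 and 85.3 CPM in CTRL mice (1.15 ± 0.28, adjusted p = 0.212, edgeR). *Il18r1*, which lies beside *Il1rl1* and encodes the interleukin 18 receptor, was 229 and 233 CPM in Trpv1-ADC mice and 107 and 130 CPM in CTRL mice (0.97 ± 0.25, adjusted p = 0.262, edgeR). Of the listed neighbours of *Il1rl1*, 2 were tested in this class. *Il18r1* had a positive log2 fold change and the other did not, so they shared no direction.

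The partner chains were found in most classes. *Il1rap*, the co-receptor that ST2 needs, averaged 41.1 CPM in ILC2-like cells, with 564 CPM in neutrophil-like cells and 14.6 to 49.2 CPM in the other classes. *Il17ra*, the partner of *Il17rb*, averaged 49.2 CPM in ILC2-like cells, with 223 CPM in neutrophil-like cells and 22.4 to 90.9 CPM in the others. In ILC2-like cells *Il1rap* had 3 and 24 UMIs in Trpv1-ADC mice and 9 and 16 in CTRL mice, and *Il17ra* had 14 and 16 UMIs in Trpv1-ADC mice and 15 and 17 in CTRL mice. Of the ligands, *Il33* was found mainly in non-immune cells (60% of 715 UMIs) and conventional dendritic cell type 1-like cells (17.9%), and *Tslp* mainly in non-immune cells (74.5% of 157 UMIs). *Il33*, also named after its values were seen, in non-immune cells was 74.0 and 69.2 CPM in Trpv1-ADC mice, and 38.3 and 38.3 CPM in CTRL mice, without overlap, but it did not pass the test (0.86 ± 0.16, edgeR, adjusted p = 0.697). *Il25* had 0 UMIs in all kept cells, which allows a level of up to 0.0261 CPM. The receptor of interleukin 5, *Il5ra*, was found mostly in B cell-like cells, with 80.5% of its 922 UMIs.

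With all cells of a mouse summed, no member passed. The 5 members were read against 46 of 18783 genes called, 0.245%. *Il5* was 0.761 and 1.08 CPM in Trpv1-ADC mice, against 3.75 and 5.21 CPM in CTRL mice, with a log2 fold change of -2.26 ± 0.30 (edgeR, adjusted p = 0.0608). *Il13* was 0.870 and 1.11 CPM in Trpv1-ADC mice, against 2.54 and 4.07 CPM in CTRL mice (-1.71 ± 0.33, edgeR, adjusted p = 0.0932). *Il1rl1* was 4.79 and 4.01 CPM in Trpv1-ADC mice, against 16.0 and 10.1 CPM in CTRL mice (-1.56 ± 0.25, edgeR, adjusted p = 0.0787). These 3 kept the groups apart. *Il4* (3.95 and 2.93 CPM in Trpv1-ADC mice, 3.78 and 4.07 CPM in CTRL mice, -0.17 ± 0.21) and *Il17rb* (4.24 and 4.86 CPM in Trpv1-ADC mice, 4.61 and 4.89 CPM in CTRL mice, -0.05 ± 0.17) overlapped, and in such sums fewer cells of a type and less RNA per cell cannot be told apart. In all cells DESeq2 did call *Il5*, *Il13* and *Il1rl1*. With any 1 mouse left out, the edgeR log2 fold change of *Il1rl1* was -1.84 to -1.20. Of the listed genes 3 fell in all cells: *Csf2rb*, the shared signalling chain of the interleukin 5 receptor, with 29.1 and 29.8 CPM in Trpv1-ADC mice against 60.6 and 65.4 CPM in CTRL mice (-1.08 ± 0.08, edgeR, adjusted p = 0.0326), *Calca*, which encodes CGRP, with 2.54 and 2.87 CPM in Trpv1-ADC mice against 7.59 and 7.89 CPM in CTRL mice (-1.50 ± 0.16, edgeR, adjusted p = 0.0460), and *Il1r2*, a decoy receptor gene near *Il1rl1*, with 62.7 and 59.5 CPM in Trpv1-ADC mice against 110 and 119 CPM in CTRL mice (-0.89 ± 0.07, edgeR, adjusted p = 0.0350).

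**Figure D5:**
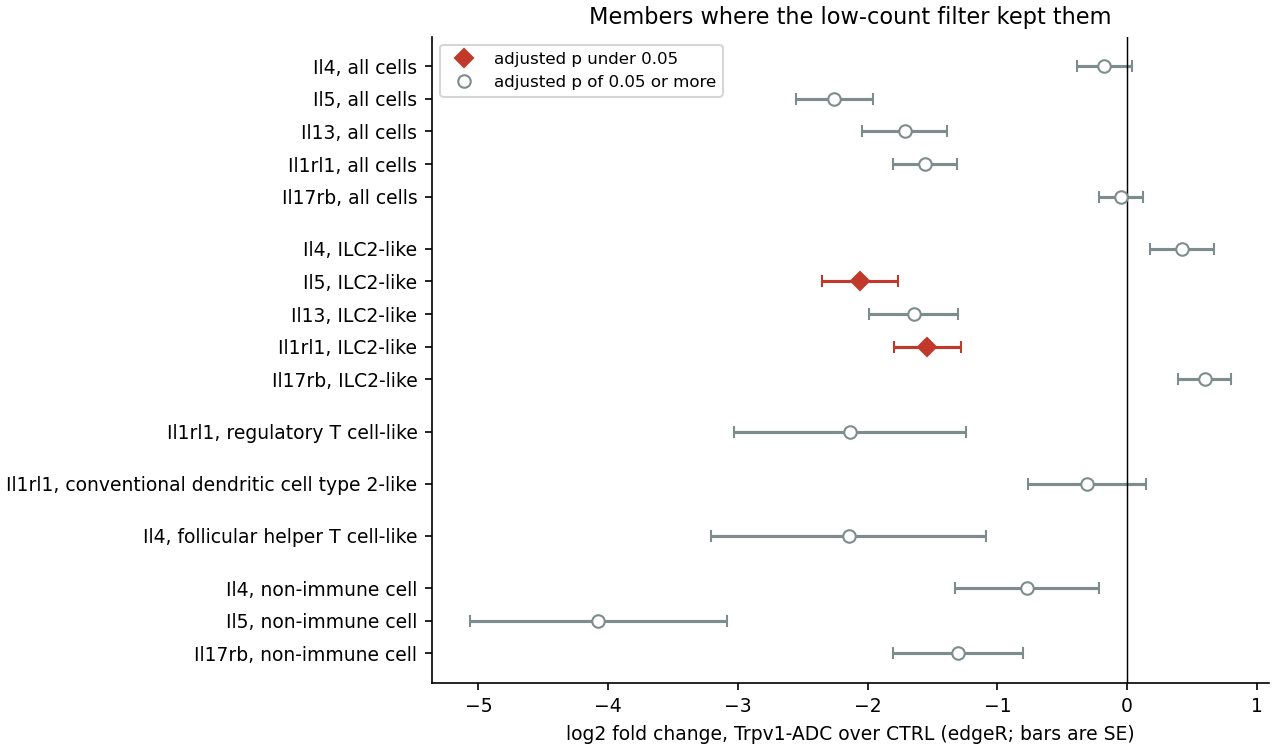
Log2 fold change of each member, Trpv1-ADC over CTRL (x axis, edgeR, bars are SE derived from the F statistic), in all cells and in the classes where the low-count filter kept it. Filled red diamonds mark an adjusted p under 0.05, which only *Il5* (-2.06) and *Il1rl1* (-1.54) in ILC2-like cells reach.

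Outside ILC2, regulatory T cell-like cells held 23.7% of the *Il1rl1* UMIs. Nearly all came from 1 of 2 clusters, that led by *Lrrc32*, *Sh3rf1* and *Tnfrsf4*, with a UMI in 53 of 420 cells (12.6%), against 5 of 781 cells (0.640%) of the cluster led by *Il10*, *Myo3b* and *Lag3*. The 58 *Il1rl1* cells of the class differed from its other 1143 cells in further genes: *Gata3* was found in 75.9% against 26.9%, *Areg* in 82.8% against 28.6%, *Klrg1*, a receptor of differentiated lymphocytes, in 51.7% against 0.875%, and *Foxp3*, the defining factor of regulatory T cells, in 84.5% against 62.5%. Their median depths were 5520 and 4946 UMIs. Since ILC2 carry the first 3 of these genes too, *Cd3e* was examined, and it was found in 82.8% against 80.1%.

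*Il1rl1* in regulatory T cell-like cells had 25 and 20 UMIs (17.6 and 10.5 CPM) in Trpv1-ADC mice, against 148 and 47 UMIs (89.1 and 29.4 CPM) in CTRL mice. Both CTRL mice were higher, and CTRL 1 was higher than CTRL 2 by more than the 2 groups' nearest mice differed. The log2 fold change of -2.14 ± 0.89 did not pass the test (edgeR, adjusted p = 0.648), while 94 of 9575 genes were called in the class (0.982%). Without CTRL 2 the log2 fold change of *Il1rl1* was -2.71, and without CTRL 1 it was -1.11. Cells with a UMI were 5 and 8 in Trpv1-ADC mice and 32 and 13 in CTRL mice. Of the lists, *Areg* fell in this class, with 212 and 189 CPM in Trpv1-ADC mice against 299 and 346 CPM in CTRL mice (-0.71 ± 0.11, edgeR, adjusted p = 0.0013), as did *Klrg1* (-1.67 ± 0.37, adjusted p = 0.0245, edgeR), *Id2* (-0.69 ± 0.10), *Il10* (-0.57 ± 0.11) and *Il18rap* (-0.86 ± 0.20). *Gata3* did not pass (-0.23 ± 0.20).

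Conventional dendritic cell type 2-like cells, a cluster led by *Retnla*, *Lyz1* and *Fn1*, had *Il1rl1* in 56 of 425 cells (13.2%). It was 24.8 and 12.5 CPM in Trpv1-ADC mice, against 32.0 and 14.7 CPM in CTRL mice, which overlapped (-0.31 ± 0.45, edgeR, adjusted p = 0.954, with 2 of 8524 genes called, 0.0235%). The mast cell or basophil-like cluster was too small to test, with 8 and 3 cells in Trpv1-ADC mice and 5 and 6 in CTRL mice. Its *Il1rl1* levels were 291 and 361 CPM in Trpv1-ADC mice, and 324 and 314 CPM in CTRL mice. In that cluster the mean difference was thus 6.89 CPM, within the spread of the Trpv1-ADC mice, 49.3 CPM.

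*Il4* in follicular helper T cell-like cells had 11 and 5 UMIs in Trpv1-ADC mice, against 26 and 12 in CTRL mice (-2.15 ± 1.06, edgeR, adjusted p = 0.813, with 1 of 9646 genes called, 0.0104%). A single cell held 25 of the 26 UMIs of CTRL 1. Without CTRL 1 the log2 fold change was -0.62, without CTRL 2 it was -3.37 and without Trpv1-ADC 1 it was -2.61. Cells with a UMI were 2.05% ± 0.538 of the class in Trpv1-ADC mice and 2.21% ± 0.559 in CTRL mice.

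Non-immune cells that passed the CD45 sort also carried members: *Il5* had 1 and 0 UMIs in Trpv1-ADC mice against 21 and 12 in CTRL mice, and *Il13* had 0 and 0 in Trpv1-ADC mice against 16 and 11 in CTRL mice. *Il17rb* had 4 and 5 UMIs in Trpv1-ADC mice against 21 and 16 in CTRL mice. *Il13* was not tested, since the low-count filter left it out, and neither *Il5* nor *Il17rb* passed (*Il5* -4.08 ± 0.99, a fitted value that depends on the prior count where 1 group has 1 UMI, edgeR, adjusted p = 0.697; *Il17rb* -1.31 ± 0.50, edgeR, adjusted p = 0.750), and 0 of 12223 genes were called, or 0% (809 had a raw p under 0.05, edgeR; DESeq2 called 9). The 25 non-immune cells with *Il5*, *Il13* or *Il17rb* had *Gata3* in 84.0%, *Areg* in 84.0%, *Ptprc*, the gene of CD45, in 96.0% and *Col3a1* in 92.0%. The other 619 had *Gata3* in 16.8%, *Areg* in 14.7%, *Ptprc* in 67.2% and *Col3a1* in 80.3%. The median depth was 15988 UMIs in the 25 cells and 12220 in the others. The transcripts of ILC2 and of fibroblasts were thus found under the same barcodes, and whether these are doublets was not tested.

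Cycling cells gave *Il5*, *Il13* or *Il17rb* in 4 of 77 cells, 0 and 1 in Trpv1-ADC mice and 1 and 2 in CTRL mice. All 4 had *Gata3*, *Areg*, *Klrg1* and the proliferation gene *Mki67*, and 1 of 4 had *Cd3e*, which was present in 72 of the other 73. The ILC2 marker *Hs3st1* was found in 2 of these 4 cells and *Foxp3* in 1, while *Ikzf2* and *Tnfrsf9*, which are known from regulatory T cells, were found in all 4. The type of these few cells was not tested.

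Because *Il4*, *Il5* and *Il13* are on the chromosome of *Trpv1*, the genes within 20 Mb of it were counted. In ILC2-like cells 1 of 151 tested genes there was called (0.662%), against 3 of 4446 other placed genes (0.0675%). That call was *Il5* itself, a member for which the window was looked at, 19.5 Mb from *Trpv1* and just inside the limit. The count in this class therefore adds nothing to the test of *Il5* and cannot tell whether calls gather near *Trpv1*. In all cells 2 of 567 were called (0.353%), against 43 of 17787 others (0.242%), and in follicular helper T cell-like cells the only call, *AA465934*, was there (1 of 319, against 0 of 9208 others). In regulatory T cell-like cells the share called was lower there, 2 of 312 (0.641%), against 90 of 9153 others (0.983%). In conventional dendritic cell type 2-like cells it was 0 of 283, against 2 of 8146 others, and in non-immune cells no gene was called in either. In ILC2-like cells *Rad50* was 72.7 and 80.1 CPM in Trpv1-ADC mice, and 129 and 123 CPM in CTRL mice (-0.71 ± 0.29, edgeR, adjusted p = 0.629), and 0 of 4 tested neighbours of the 3 cytokine genes passed. A difference between strains at this chromosome and an effect of the treatment cannot be told apart with these labels.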

How the data were processed

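The authors deposited UMI counts of genes by barcode, and hashtag counts, for 1 droplet run. Both tables held whole numbers only. Per the submitters' processing notes, the authors used Cell Ranger, Seurat and mm10. No version, annotation or strand option was found there. Both 5′ and 3′ chemistry appear in the labels. Barcodes with at least 500 UMIs, 200 genes and no more than 10% mitochondrial content passed (22729 of 23063). A mouse was assigned where its hashtag had at least 10 counts and 3 times the next (19571), and Scrublet (scanpy 1.11.5, expected rate 0.2, threshold 0.375) removed 2052 doublets. Cells were clustered by Leiden (leidenalg 0.10.2; 2000 variable genes, 30 components, 15 neighbours, resolution 1) without the 5 members and named from listed markers. Sums over each mouse's cells of a class served as samples. Trpv1-ADC was tested against CTRL with edgeR 4.0.16 (TMM, filterByExpr, robust quasi-likelihood, Benjamini-Hochberg over all tested genes), where every mouse had at least 20 cells and a member at least 40 UMIs. Kept cells held 27586172 to 29905834 UMIs a mouse, and ILC2-like sums 261452 to 398641. Shares were compared with exact two-sided permutation tests, and intervals are exact binomial (Clopper-Pearson, 95%), for counting error only. A count of 0 was given the limit of 3 counts.

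The members and lists were chosen with earlier results of these data known. Named genes are the members, listed genes past the test (up to 4 per list and class) and the 3 genes most like each member; exceptions are stated. Promoter sequences come from RefSeq, gene positions from GENCODE. Alternatives were DESeq2 1.42.0, HTODemux (Seurat 5.3.0, quantile 0.99), other filters, no TMM, other clustering, leaving out each mouse, a block by mouse number and 3 chosen after seeing the data. Mouse numbers only name the animals.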

Additional observations from a re-analysis of the deposited data

Results flagged for a closer look

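Barcodes that enter no comparison also held transcripts of the members, above the 3 counts that a count of 0 allows. These are barcodes without a clear single mouse, Scrublet doublets and barcodes that failed the cell filter, 5544 in all. They held 216 UMIs of *Il4*, 142 of *Il5*, 106 of *Il13*, 395 of *Il1rl1* and 270 of *Il17rb*. Barcodes that belonged to 1 mouse but were removed by Scrublet accounted for 110, 59, 44, 175 and 121 of these UMIs in that order. No group can be given for the others.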

How the results depend on the processing

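Depth limits these results: the ILC2-like sums hold 261452 to 398641 UMIs a mouse, and 2 mice stand for each group. Of 14 alternatives, 12 kept the call on *Il5* in ILC2-like cells, 11 that on *Il1rl1*, and 3 added one on *Il13*. These alternatives are not independent: resolution 2 returned the same 188 cells and so repeats the main fit. Another 4 left out 1 mouse each, so that 1 group had a single animal. The calls on *Il4* and *Il17rb* there stayed absent in all 14. The causes of the changes below were not tested.

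In ILC2-like cells, HTODemux gave -2.004 for *Il5* and -1.53 for *Il1rl1* and called 0 genes (edgeR; DESeq2 with the ratio rule called both members), keeping Scrublet doublets gave -1.54 and -1.21 and 2 genes, and the stricter filter gave -1.53 for *Il1rl1*, all without the call. Without the low-count filter *Il13* passed at -1.69 and 56 genes were called. In all cells *Il5*, *Il13* and *Il1rl1* passed with DESeq2 (-2.26, -1.72, -1.56; 699 genes) and without the filter (-2.26, -1.71, -1.56; 1057 genes), and *Il5* also with HTODemux (-2.27; 74 genes) and without the richest cells (-2.62). The stricter filter called 7 genes there. Without the low-count filter *Il4* in follicular helper T cell-like cells (-2.15; 67 genes) and *Il5* in non-immune cells (-4.08; 363 genes) passed. DESeq2 called 17 genes in dendritic cell type 2-like, 9 in non-immune and 27 in regulatory T cell-like cells. Dendritic cell type 2-like cells gave 131 genes without the filter, 10 with HTODemux and 7 at resolution 2, and no such class was found with doublets kept or the stricter filter. Regulatory T cell-like cells gave 183 without the filter, 49 with doublets kept, 46 at resolution 2, 44 with the stricter filter and 3 in the *Lrrc32*-led cluster alone. Thinning to 2000 UMIs moved the difference in the share of ILC2-like cells, Trpv1-ADC minus CTRL, to -23.2 percentage points for *Il5*, -8.55 for *Il13* and 16.8 for *Il17rb*.

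With 1 mouse left out, the lone mouse of its group is assumed to vary like the others. Genes called were then 6 to 69 in all cells, 17 to 76 in ILC2-like, 30 to 59 in dendritic cell type 2-like, 2 to 197 in follicular helper T cell-like, 0 to 189 in non-immune and 102 to 250 in regulatory T cell-like cells. In all cells *Il1rl1* was -1.84 to -1.20 and passed in 1 of these fits, *Il4* was -0.40 to 0.023 with its sign turned without Trpv1-ADC 2, and *Il17rb* was -0.15 to 0.050, turned without Trpv1-ADC 1 (0.050) and CTRL 2 (0.0022). *Il13* in ILC2-like cells was -1.98 to -1.21, *Il4* in follicular helper T cell-like cells -3.37 to -0.62, *Il5* in non-immune cells -6.86 to -3.13 and *Il1rl1* in regulatory T cell-like cells -2.71 to -1.11. *Il1rl1* in dendritic cell type 2-like cells was -0.91 to 0.37, turned without Trpv1-ADC 2 (0.09) and CTRL 1 (0.37).

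Mouse numbers only name the animals: same-numbered mice correlated in their deviations at -0.01 to 0.19 over the 6 sums. With the number as a replicate block, calls numbered 473 in all cells (*Il5* -2.26, *Il13* -1.70 and *Il1rl1* -1.53 passed), 13 in ILC2-like, 47 in dendritic cell type 2-like, 31 in follicular helper T cell-like, 6 in non-immune and 182 in regulatory T cell-like cells (*Il1rl1* -2.01, passed).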
